A study of Mesocricetus auratus with 6 samples.

Results

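The genes of the DNA replication machinery were read in hamster uterus on day 5 of pregnancy, when blastocysts implant; the animals were Syrian golden hamsters. The set held 43 genes chosen by name, from origin licensing through the replication fork to nucleotide supply, and all 43 had a probe set on the array. Together they had 67 of the 22215 probe sets tested, counting only probe sets that the platform annotation gives to a single gene. Another 2 probe sets carried the name of a member beside that of a second gene and were not used. Each of the 43 names also belongs to a hamster gene in RefSeq's annotation of the assembly BCM_Maur_2.0.

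Tissue that carried an implanting embryo (implantation sites) was compared with tissue between embryos (interimplantation sites), with 3 arrays in each group. The animals were untreated, and the labels give no strain, age or genotype. The RNA sets came from 3 animals, per the design text, and no label says which animal an array came from. Both kinds of site may therefore have come from the same 3 animals; the tests treat the arrays as unpaired, and each p-value reflects only how much these arrays vary. The RNA was hybridised to an Affymetrix array built for human transcripts, so a dim probe set may match the hamster transcript poorly and shows neither that a transcript is absent nor that it is unchanged.

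DNA replication starts from origins that are licensed in advance. The origin recognition complex (ORC) marks an origin, CDC6 helps to load the ring of MCM proteins that will unwind the DNA, and geminin (GMNN) blocks further loading. The kinase CDC7 and the factors CDC45 and GINS then turn the MCM ring into an active helicase. At the fork, primase and DNA polymerase alpha lay down primers, RFC loads the sliding clamp PCNA, polymerases delta and epsilon extend the strands, RPA covers single-stranded DNA, and FEN1 and LIG1 join the lagging strand. Ribonucleotide reductase (RRM1 and RRM2), TYMS, TK1 and DUT supply the nucleotides. In rodents the uterine stroma around an implanting embryo divides and then turns into decidual cells, many of which copy their DNA without dividing.

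PCNA, the sliding clamp, rose at implantation sites and was the one member to pass. RRM1, the large subunit of ribonucleotide reductase, came next and missed the threshold narrowly. Differences are given as log2 implantation site minus log2 interimplantation site, tested with limma and adjusted by the Benjamini-Hochberg method over all probe sets at a threshold of 0.05. Past the threshold, 1 of the 67 probe sets was higher and 0 were lower, against 0.702% higher and 0.356% lower among all probe sets. Without the adjustment, at a p under 0.05, 11 were higher and 1 was lower, against 5.27% and 5.23% of all probe sets. Implantation arrays all lay above interimplantation arrays in 12 of the 67 and all below in 2, as they did in 7.72% and 8.3% of all probe sets.

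With each gene read at its brightest probe set, 11 of 43 members lay higher with an unadjusted p under 0.05 in limma's test and 0 lay lower, while 5.68% of all 11963 genes were higher and 5.22% lower. As a share of the members, the 11 made 25.6%. They numbered 5 when a gene's probe sets were averaged (MCM5, PCNA, PRIM1, RNASEH2A and RRM1; 5.51% of all genes were then higher) and also 5 when probe sets that can match several transcripts, with names ending in _x_at or _s_at, were left out, which leaves 33 members (MCM4, MCM5, PCNA, PRIM1 and RNASEH2A; 4.83% of the 8369 genes left were higher), with 0 lower at an unadjusted p under 0.05 in limma's test both times. Among the 36 members at or above the first quartile of brightness 10 were higher and 0 lower, where all such genes gave 6.41% and 5.67%, and among the 28 at or above the median 8 were higher and 0 lower, where all such genes gave 6.87% and 6.1%. In each of the 11 the implantation arrays all lay above the interimplantation arrays. A separation in that direction was found in 8.36% of all genes, and in the opposite direction in 8.09%; among members the latter occurred in 1, POLA2. After adjustment over all genes 1 member was higher and 0 lower, against 0.777% and 0.46% of all genes. Differences above 0 were found in 28 members (65.1%) and in 47.6% of all genes. The median difference over the 43 members was 0.07, and that over all genes was −0.01. The other 32 members differed by −0.11 to 0.20, with 95% confidence intervals that together spanned −0.37 to 0.46.

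**Figure D1:**
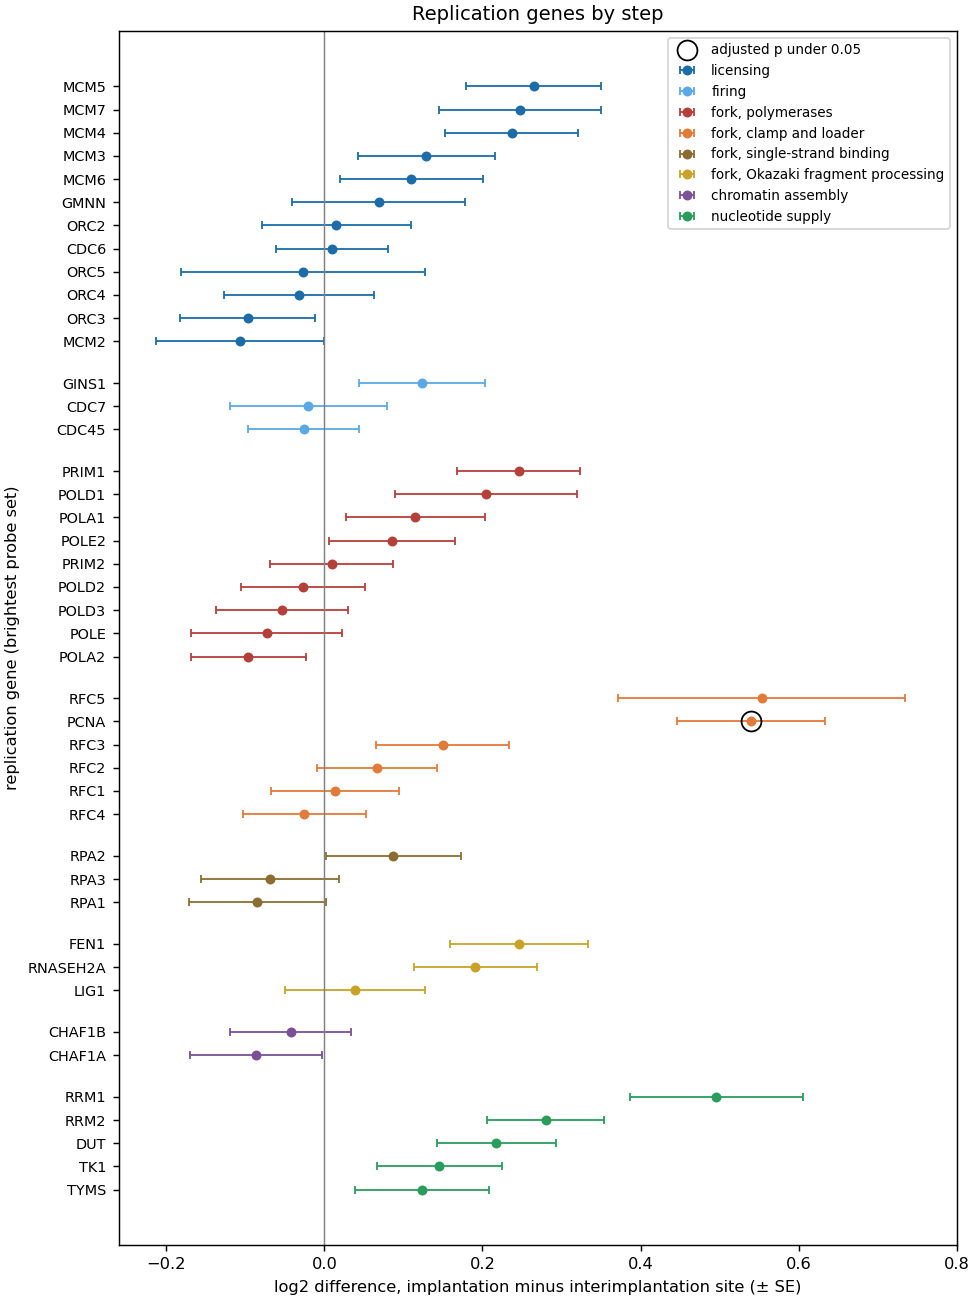
Log2 difference (x axis, implantation minus interimplantation site) of each of the 43 replication genes at its brightest probe set, grouped by step; points are limma estimates from 3 arrays per group, bars ± SE. PCNA (0.54) is the one circled as past the adjusted threshold, RFC5 (0.55) has the widest bar of the clamp and loader genes, and all 5 nucleotide supply genes lie right of 0.

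PCNA was measured by 1 probe set (201202_at). Its log2 signal was 2.73, 2.72 and 2.90 at implantation sites and 2.15, 2.43 and 2.15 at interimplantation sites. The groups did not overlap, and the lowest implantation array stood 0.29 above the highest interimplantation array. The difference was 0.54 ± 0.09 (SE), a 1.45-fold rise (adjusted p = 0.0197 over probe sets and 0.0159 over genes with limma). Both group means, 2.78 ± 0.10 and 2.24 ± 0.16 (SD, n = 3 arrays each), were low on this array: the probe set stood at percentile 11.7 of brightness, below the first quartile of 3.10. The call depended on single arrays, since the adjusted p over probe sets was 0.0622 without implantation site 1, 0.107 without implantation site 3, 0.0541 without interimplantation site 1 and 0.0920 without interimplantation site 3. Over genes the adjusted p with limma was 0.0440, 0.0860, 0.0461 and 0.0821 in the same order. PCNA thus still passed over genes without implantation site 1 or interimplantation site 1. The difference itself stayed between 0.48 and 0.63 whichever array was left out.

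**Figure D2:**
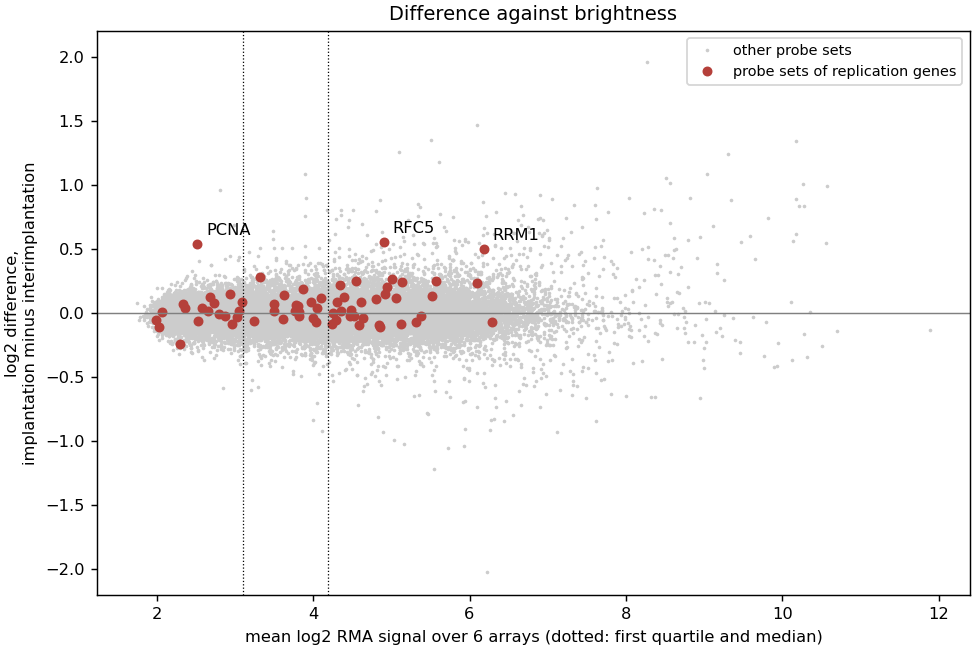
Log2 difference (y axis) against mean log2 RMA signal over 6 arrays (x axis) for all probe sets tested (grey) and the 67 probe sets of replication genes (red), with dotted lines at the first quartile (3.10) and median (4.19) of brightness. PCNA stands left of the first line, while RFC5 and RRM1 stand right of the second.

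The clamp loader, replication factor C, has a large subunit (RFC1) and small ones (RFC2 to RFC5). RFC5 gave 5.14, 5.41 and 4.98 at implantation sites and 4.12, 4.94 and 4.81 at interimplantation sites at its brightest probe set (203210_s_at). The groups were separate, but interimplantation site 1 lay far below the other two. The difference was 0.55 ± 0.18 (SE) and did not pass (adjusted p = 0.263), and it was 0.30 without interimplantation site 1. The other probe sets of RFC5 were at 0.01 and −0.11. RFC3 was at 0.15 ± 0.08 (SE), RFC2 at 0.07, RFC1 at 0.01 and RFC4 at −0.03 at their brightest probe sets, and in these 4 genes the groups overlapped. Dimmer probe sets of RFC1 were at 0.12 and 0.09 (209085_x_at), the latter with separate groups.

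Nucleotide supply had the highest median of the steps. At the brightest probe sets all 5 genes were above 0, with a median of 0.22. Of these, 3 were higher at an unadjusted p under 0.05 in limma's test, where 5.68% of all genes were. Over all 10 probe sets of the step the median was 0.13, with 3 higher at an unadjusted p under 0.05 and 2 below 0. With probe sets averaged per gene, RRM1 alone of the 5 was higher at an unadjusted p under 0.05. RRM1, which carries the active site of ribonucleotide reductase, gave 6.46, 6.29 and 6.53 at implantation sites and 5.69, 6.03 and 6.08 at interimplantation sites (201476_s_at). The groups did not overlap, and interimplantation site 1 was the lowest array. The difference was 0.50 ± 0.11 (SE), or 1.41-fold, with an adjusted p of 0.0606 over probe sets and 0.0518 over genes. This probe set was bright, at percentile 93.3. With both probe sets averaged the difference was 0.21 (adjusted p = 0.333 over genes). The second probe set of RRM1 (201477_s_at) was at −0.07 ± 0.07 (SE), with groups of 3.95 to 4.04 against 4.04 to 4.12 that overlapped slightly.

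RRM2, the small subunit that makes the radical needed by the enzyme and whose level follows S phase, gave 3.45, 3.50 and 3.43 against 3.17, 3.26 and 3.11 (209773_s_at). The groups were apart and tight, with a difference of 0.28 ± 0.07 (SE; adjusted p = 0.131). Its dimmer probe set was at 0.02. DUT, the pyrophosphatase that keeps uracil out of DNA, gave 4.47, 4.52 and 4.38 against 4.22, 4.31 and 4.19 (209932_s_at). DUT had a difference of 0.22 ± 0.08 (SE, adjusted p = 0.295 with limma). Its other probe sets were at 0.14 and −0.04. In thymidylate synthesis the values were smaller: TK1, thymidine kinase, was at 0.15 ± 0.08 (SE), and TYMS, thymidylate synthase, was at 0.12 ± 0.08 and 0.06 ± 0.08 at its 2 probe sets. TK1 gave 5.06, 4.93 and 4.98 against 4.93, 4.85 and 4.74, and TYMS 4.43, 4.57 and 4.36 against 4.43, 4.34 and 4.23, so the groups overlapped in both. With single arrays left out TYMS ranged from 0.07 to 0.17.

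**Figure D3:**
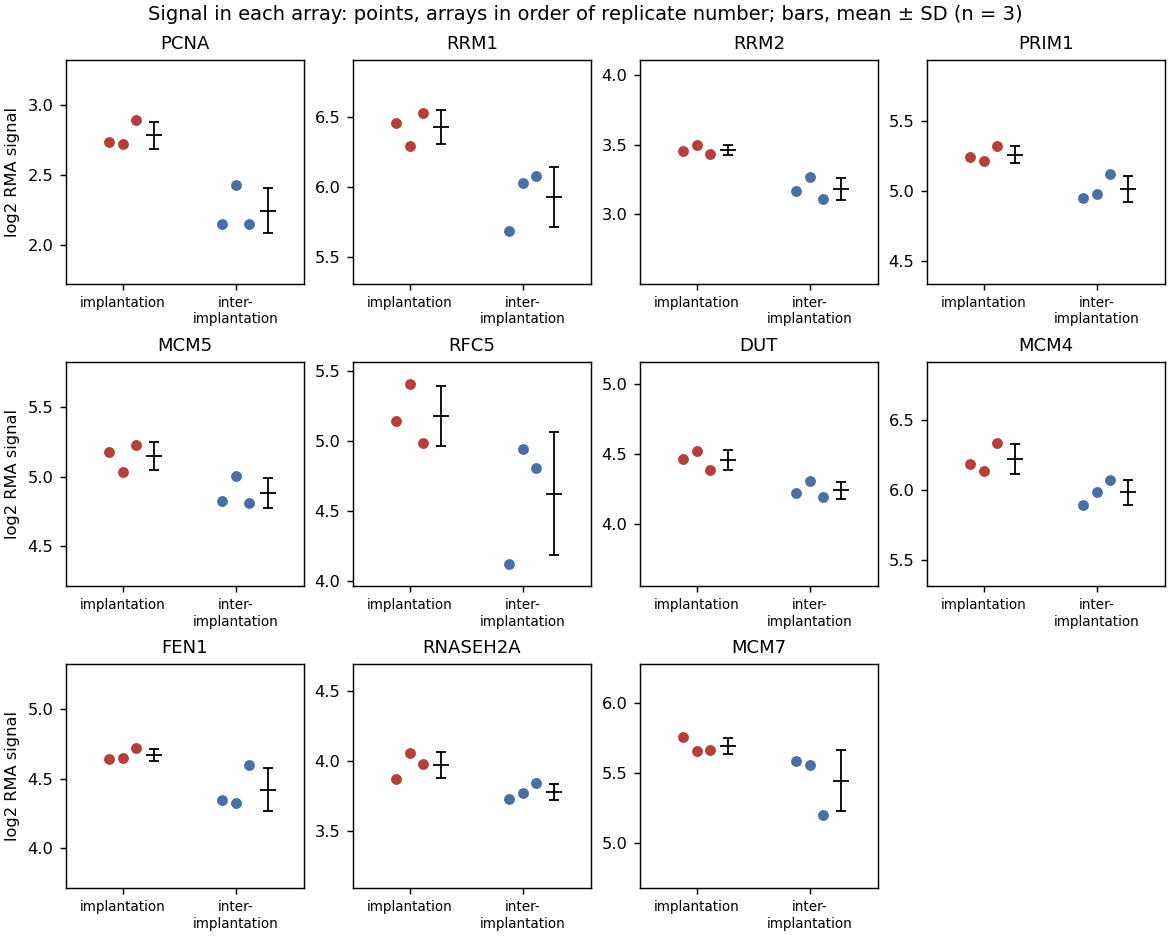
Log2 RMA signal (y axis, each panel spanning the same range) in each array for the 11 replication genes at an unadjusted p under 0.05, at their brightest probe sets, ordered by p; points are arrays and bars are the mean ± SD (n = 3). Every implantation array lies above every interimplantation array in each panel, and a single low interimplantation array stands out in RFC5 (4.12) and MCM7 (5.20).

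Among the licensing members, the genes at an unadjusted p under 0.05 were all subunits of the MCM ring. The 6 MCM genes had a median difference of 0.18 at their brightest probe sets. Of these, 3, MCM4, MCM5 and MCM7, were higher at an unadjusted p under 0.05, where 5.68% of all genes were. Over all 11 MCM probe sets the median was 0.09, with 3 higher and 1 lower at that level. With probe sets averaged per gene, MCM5 alone of the 6 was higher at an unadjusted p under 0.05. None of the 6 passed after adjustment in limma's test. MCM5 gave 5.18, 5.04 and 5.22 at implantation sites and 4.82, 5.01 and 4.81 at interimplantation sites (201755_at), a difference of 0.26 ± 0.08 (SE; adjusted p = 0.250). The groups were apart by little, since interimplantation site 2 lay just below implantation site 2. The second probe set of MCM5 was at 0.05, with overlapping groups.

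MCM4 gave 6.18, 6.13 and 6.34 against 5.89, 5.99 and 6.07 at its brightest probe set (212141_at), with a difference of 0.24 ± 0.08 (SE; adjusted p = 0.304). Its other probe sets were at 0.02, −0.01 and −0.24. The last of these (222036_s_at) had separate groups in the opposite direction, 2.02, 2.27 and 2.24 against 2.57, 2.33 and 2.37, and was the 1 member probe set that was lower at an unadjusted p under 0.05. It was dim, at percentile 6.18, whereas the brightest stood at 92.3. MCM7 gave 5.76, 5.66 and 5.66 against 5.59, 5.56 and 5.20 (210983_s_at), a difference of 0.25 ± 0.10 (SE; adjusted p = 0.416). Interimplantation site 3 was the low array there, and without it the difference was 0.12. The second probe set of MCM7 was at 0.09, with overlapping groups.

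The remaining MCM subunits, which sit in the same ring, had overlapping groups. MCM3 gave 5.73, 5.54 and 5.49 against 5.56, 5.44 and 5.38, a difference of 0.13 ± 0.09 (SE). MCM6 gave 4.95, 4.87 and 4.75 against 4.89, 4.61 and 4.74, a difference of 0.11 ± 0.09 (SE). MCM2 was the one subunit below 0: it gave 4.74, 5.02 and 4.67 against 5.08, 4.79 and 4.87, a difference of −0.11 ± 0.11 (SE), and its 95% confidence interval ran from −0.34 to 0.13. With single arrays left out, MCM3 ranged from 0.06 to 0.18, MCM6 from 0.04 to 0.18 and MCM2 from −0.21 to −0.02.

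The members that act before the MCM ring had differences of −0.10 to 0.07. The 4 ORC members were ORC3 (−0.10), ORC4 (−0.03), ORC5 (−0.03) and ORC2 (0.02), with a median of −0.03. Of these, 0 had an unadjusted p under 0.05 in limma's test. ORC1, which is not a member and is described below, was higher, at 0.21 ± 0.07 (SE). Below the median of brightness lay 2 of the 4 ORC members, with ORC4 at percentile 23.2, and 0 of the 6 MCM genes. ORC2 gave 3.32, 3.68 and 3.51 against 3.44, 3.47 and 3.55, and its 95% confidence interval was −0.19 to 0.22. ORC5 was the noisiest: interimplantation arrays alone ran from 4.09 to 4.72, and its interval was −0.37 to 0.31. CDC6, the loader, gave 3.80, 3.84 and 3.80 against 3.86, 3.77 and 3.79, a difference of 0.01 with an interval of −0.15 to 0.16. The licensing inhibitor GMNN was at 0.07 ± 0.11 (SE), from a dim probe set at percentile 7.17.

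Of the 3 origin firing genes 0 had an unadjusted p under 0.05 in limma's test. CDC45, the helicase factor, was at −0.03 ± 0.07 (SE), with all 6 arrays between 4.49 and 4.57, and CDC7, the kinase, was at −0.02 ± 0.10 (SE). GINS1, a subunit of the GINS complex, was at 0.12 ± 0.08 (SE). CDC7 and GINS1 were both below the first quartile of brightness.

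Among the 9 polymerase and primase genes, 1 was higher at an unadjusted p under 0.05, where 5.68% of all genes were. The gene was PRIM1, the catalytic subunit of primase. It gave 5.24, 5.21 and 5.32 at implantation sites and 4.95, 4.98 and 5.12 at interimplantation sites. The groups did not overlap, and the difference was 0.25 ± 0.08 (SE; adjusted p = 0.244). Its partner PRIM2 was at 0.01 from a probe set at percentile 1.18. POLD1, the catalytic subunit of polymerase delta, was at 0.20 ± 0.12 (SE), with implantation site 1 at 5.32 above all the others and the remaining arrays mixed between 4.75 and 4.97. Its accessory subunits POLD2 and POLD3 were at −0.03 and −0.05.

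For polymerase alpha the catalytic subunit POLA1 gave 4.98, 5.24 and 5.13 against 5.03, 5.08 and 4.90 (0.11 ± 0.09, SE), with overlapping groups and a range of 0.06 to 0.18 with single arrays left out. The accessory subunit POLA2 gave 4.80, 4.75 and 4.82 against 4.95, 4.83 and 4.87 (−0.10 ± 0.07, SE). POLA2 was the member whose implantation arrays all lay below the interimplantation arrays, by a small margin and with an unadjusted p of 0.211. For polymerase epsilon, POLE was at −0.07 and POLE2 at 0.09. The median of the 9 genes was 0.01.

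In lagging strand processing 2 of 3 genes were higher at an unadjusted p under 0.05, where 5.68% of all genes were. With probe sets averaged per gene, RNASEH2A alone of the 3 was. FEN1, the flap endonuclease, gave 4.64, 4.65 and 4.72 at implantation sites and 4.34, 4.32 and 4.60 at interimplantation sites (204768_s_at), with interimplantation site 3 close to the implantation arrays. The difference was 0.25 ± 0.09 (SE; adjusted p = 0.306), while a second probe set of similar brightness (204767_s_at) gave 4.23, 4.24 and 4.28 against 4.27, 4.26 and 4.22, a difference of 0.00 ± 0.07 (SE). RNASEH2A, the catalytic subunit of the enzyme that removes RNA from DNA, gave 3.87, 4.06 and 3.98 against 3.73, 3.77 and 3.84, a difference of 0.19 ± 0.08 (SE; adjusted p = 0.403). LIG1, the ligase, was at 0.04 ± 0.09 (SE), with 4.07, 3.98 and 4.14 against 4.11, 4.11 and 3.86.

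The single-strand binding protein RPA showed no member at an unadjusted p under 0.05 in limma's test. RPA2 was at 0.09, RPA3 at −0.07 and RPA1 at −0.08. The chromatin assembly factor CAF-1, which PCNA brings to new DNA, was near 0 as well, with CHAF1B at −0.04 ± 0.08 (SE) and CHAF1A at −0.09 ± 0.08 (SE) at the brightest of its 3 probe sets.

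In 17 members several probe sets read the same gene, and their differences were often unlike. In 8 of these 17 at least 1 probe set had an unadjusted p under 0.05, and in 1, MCM4, 2 did, in opposite directions. All probe sets lay above 0 in 8 of the 17, all below 0 in 2, and on both sides in 7. The matching shares among all genes with several probe sets were not computed, so these counts have no background beside them. In RRM1, RFC5 and MCM4 the probe sets of the gene spanned more than 0.30. PCNA, PRIM1 and RNASEH2A, with 1 probe set each, have no such comparison.

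**Figure D4:**
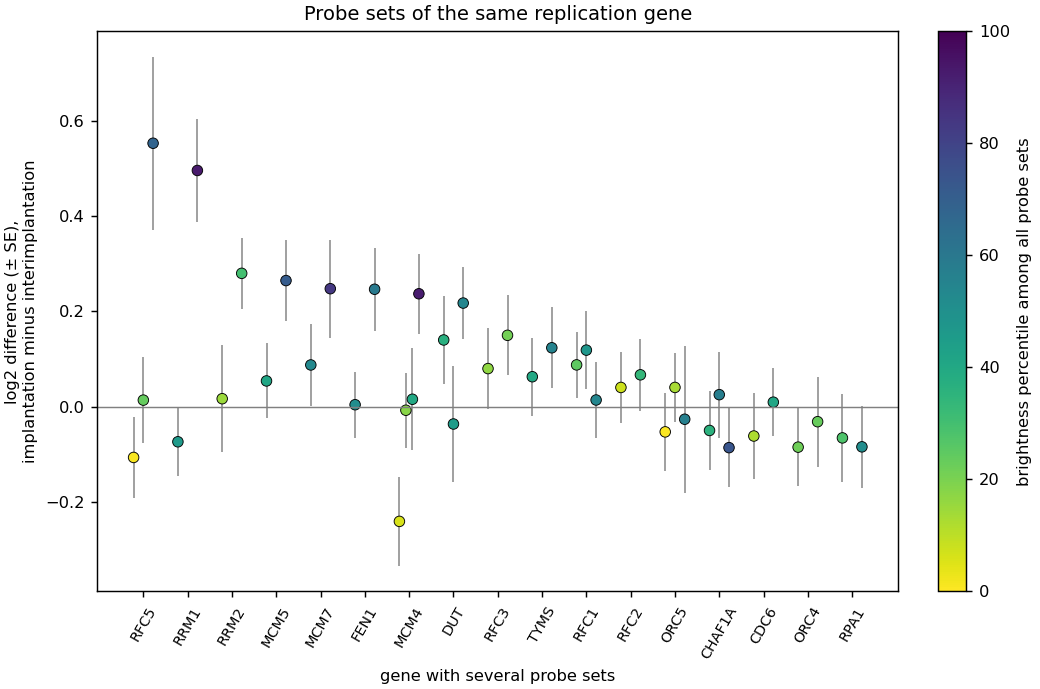
Log2 difference (y axis, ± SE) of every probe set of the 17 replication genes that have several, ordered within each gene from dim to bright and coloured by brightness percentile among all probe sets. In RFC5, RRM1, RRM2, MCM5, MCM7, FEN1, MCM4 and DUT the highest point is the brightest probe set, and the others lie between −0.24 and 0.14. These genes were higher at an unadjusted p under 0.05 at that probe set, a choice that favours a high point there. The brightest is also the highest in TYMS, RFC2, RFC3, CDC6 and ORC4, but not in RFC1, RPA1, CHAF1A and ORC5.

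The median level of the members was computed for each array, as log2 signal minus the gene's own mean over the 6 arrays. It was 0.03, 0.07 and 0.03 at implantation sites and −0.03, −0.02 and −0.03 at interimplantation sites, while over all genes the 6 arrays lay between −0.01 and 0.01. For the nucleotide supply genes it was 0.13, 0.17 and 0.065 against −0.13, −0.06 and −0.17, and for the clamp and its loader 0.11, 0.09 and 0.06 against −0.05, −0.08 and −0.07. The polymerases had overlapping groups (0.03, −0.05 and 0.01 against 0.01, −0.01 and −0.01), as did licensing, where implantation site 1 was at −0.02. In pieces of tissue, a change in the number of cells of a type and a change of RNA per cell cannot be told apart.

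**Figure D5:**
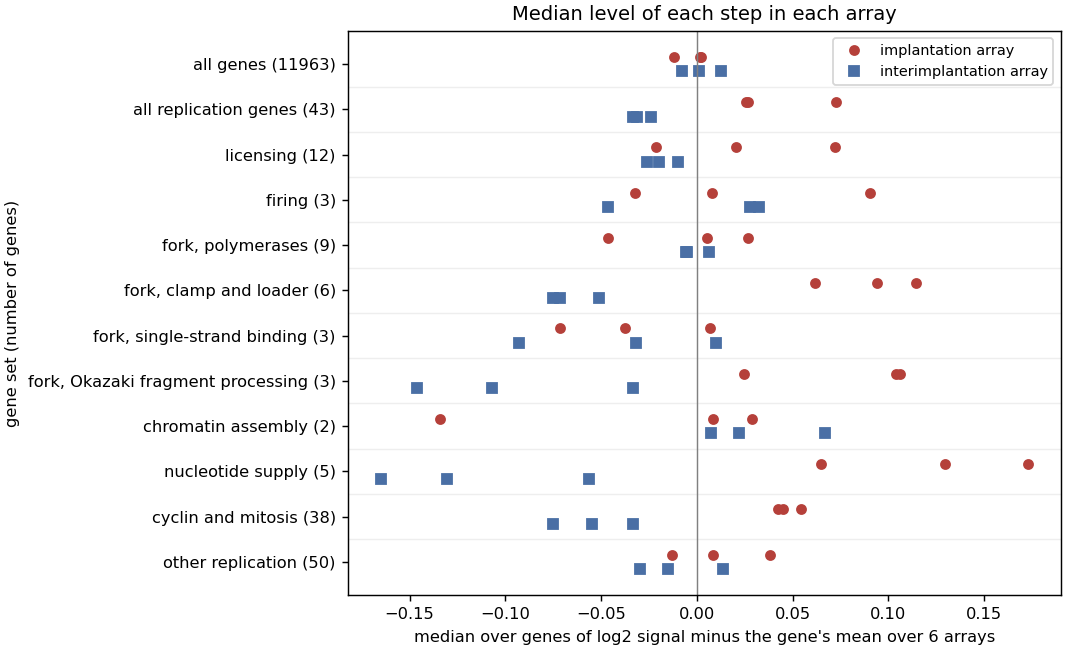
Median over genes of log2 signal minus the gene's mean over 6 arrays (x axis), for each array and each step, with the number of genes in brackets; circles are implantation and squares interimplantation arrays. The arrays separate for nucleotide supply, the clamp and its loader, and lagging strand processing, and overlap for firing, the polymerases, single-strand binding and chromatin assembly.

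Other replication genes outside the 43 were taken from a textbook list of 60, of which 50 were measured under a single name. At the brightest probe set 0 passed in either direction in limma's test, and without adjustment 5 of the 50 were higher and 0 lower, beside the 5.68% and 5.22% given above for all genes. The 5 were NASP (0.34 ± 0.08, SE), a histone chaperone, TOP1 (0.36 ± 0.09), the topoisomerase that relieves torsion, NME1 (0.29 ± 0.08), a nucleoside diphosphate kinase, ORC1 (0.21 ± 0.07) and ASF1A (0.24 ± 0.10), a histone chaperone. Their adjusted p-values over genes ran from 0.0801 (NASP) to 0.365 (ASF1A). The list median was 0.01. Named after its values were seen, a second probe set of NASP was at 0.61 ± 0.09 (SE) and did pass over probe sets (adjusted p = 0.00910), and a dimmer probe set of SHMT2, which makes one-carbon units in mitochondria, was at 0.41 ± 0.07 (SE; adjusted p = 0.0226). The lowest p among genes below 0 were those of SHMT1 (−0.26), TOP2A (−0.15) and WDHD1 (−0.14).

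TOP2A, the topoisomerase of dividing cells, also differed between its probe sets, at −0.15 ± 0.08 (SE) at the brightest and 0.24 ± 0.08 (SE) at the other. E2F1, a transcription factor that drives many replication genes, was at 0.02 ± 0.09 (SE), and CDT1, the partner of CDC6 in licensing, at −0.02 ± 0.07 (SE).

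Cyclin and mitosis genes were set beside them. Of 38 measured, 2 rose and 0 fell in limma's test over all genes: CKS2, a subunit of cyclin-dependent kinases (1.35 ± 0.16, SE), and CCNA2, the cyclin of S phase and G2 (0.80 ± 0.11, SE), the latter with a second probe set at 0.02. With probe sets averaged CKS2 alone passed, and without probe sets ending in _x_at or _s_at CCNA2 alone did. Without adjustment 12 (31.6%) were higher and 0 lower, where all genes gave 5.68% and 5.22%. The share of higher genes was 25.6% in the replication set. For calls after adjustment, all genes gave 0.777% higher and 0.46% lower. The median of the cyclin and mitosis genes was 0.11 against 0.07 for the replication genes. CDK4, the kinase of G1, was at 0.53 ± 0.12 (SE, adjusted p = 0.0524 with limma) and MKI67 at 0.19 ± 0.08 (SE). The lowest p among genes below 0 were those of CDKN1C, an inhibitor (−0.17 ± 0.08, SE), CDC25A (−0.12) and BUB1B (−0.13). None of these had an unadjusted p under 0.05 in limma's test. Of the other inhibitors of cyclin-dependent kinases measured in this list, CDKN1A was at 0.16, CDKN2A at 0.10 and CDKN1B at −0.14. The difference between these lists was not tested.

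Markers of the cells in a piece of uterus were also read. Of 8 stromal genes measured, at brightness percentiles of 29.0 (PGR) to 99.9 (COL1A1), COL1A1 rose (0.56) and PDGFRA fell (−0.66). COL3A1 (0.26) and HAND2 (0.18) were higher at an unadjusted p under 0.05 in limma's test. The rest were ESR1 (0.13), COL1A2 (0.06), PGR (−0.12) and VIM (−0.22). The summed linear signal was 2913 to 3118 at implantation and 2469 to 2951 at interimplantation sites. COL1A1 and COL3A1, the brightest of the list (mean log2 signal 10.1 and 9.25), weigh most in this sum. Of 7 smooth muscle genes 3 fell, TAGLN (−0.56), ACTG2 (−0.80) and MYLK (−0.53). CNN1 was at −0.23, DES at −0.02, MYH11 at 0.00 and ACTA2 at 0.15, the last with all implantation arrays above the others. The summed linear signal of the list was 287 to 313 at implantation sites and 345 to 429 at interimplantation sites. Of 6 epithelial genes 0 passed in limma's test and 2 (KRT19 and KRT8) were lower at an unadjusted p under 0.05, with sums of 112 to 121 against 123 to 134; EPCAM, a defining marker, was dim at percentile 18.2. Of 7 measured markers of embryo and trophoblast 0 passed, and 0 had an unadjusted p under 0.05; their sums overlapped, at 158 to 165 against 155 to 172. Endothelial (126 to 137 against 131 to 147) and leukocyte sums (84.7 to 92.0 against 81.1 to 90.3) overlapped too, while the 4 decidual markers summed to 90.2 to 100.05 against 84.4 to 88.1. None of the 4 had an unadjusted p under 0.05 in limma's test, and the groups overlapped in each (WNT4 0.21, BMP2 0.16, PRLR 0.09 and IGFBP1 0.04).

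The log2 ratio of 3′ to 5′ signal of the actin and GAPDH controls was read as a measure of RNA integrity. These probes were built for human transcripts, so the ratio may also reflect how well each end matches the hamster transcript. For actin the ratio was −2.08 ± 0.22 at implantation and −1.70 ± 0.15 at interimplantation sites (SD, n = 3). The exact permutation p was 0.1, two-sided, the smallest this design allows. For GAPDH the ratio was −0.20 ± 0.16 against 0.13 ± 0.17 (exact permutation p = 0.2). The part of these marker genes and of RNA integrity in the differences of the replication genes was not tested.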

How the data were processed

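The deposited table holds log2 signals, 1 for each probe set on each array; the submitters' processing notes name RMA and Partek 6.6. The log base is not stated, and log2 was read from the range of values (1.65 to 12.1). RMA brings all arrays to 1 distribution (array medians 4.18 to 4.20), so a change of total RNA per tissue piece is not visible. Of 22283 probe sets, 68 controls were left out.

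The 2 kinds of site were tested against each other in limma (version 3.58.1, under R 4.3.3; moderated test from eBayes, two-sided, without covariates), over all probe sets and over 11963 genes at their brightest probe set; the procedure was tested on simulated data. Brightness percentiles rank the mean over 6 arrays among all probe sets. The small number of arrays limits the precision, and no detection calls or scan dates were used. Within groups arrays correlated at 0.989 to 0.995 and between groups at 0.985 to 0.992, and no arrays were identical.

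Every member was described; array values were given for members at an adjusted, then an unadjusted p under 0.05, and for the head genes of each step (PCNA, the MCM genes, RRM1, RRM2, TYMS, FEN1, LIG1, POLA1, CDC6 and ORC2); values of further members (TK1, POLA2 and single arrays of others) were added after they were seen. Of the other lists, genes that passed and the 3 smallest p in each direction were to be named. E2F1, CDT1, MKI67 and others were added. The members and lists were chosen with earlier results of these data known.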

Additional observations from a re-analysis of the deposited data

How the results depend on the processing

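With array weights, and with a trended and robust variance prior, 2 member probe sets were higher past the threshold in place of 1, PCNA and RRM1, and 0 were with probe sets at or above the first quartile of brightness, which leaves PCNA out. Leaving out single arrays gave 0 to 1, over probe sets and over genes. Over genes, 2 members (PCNA and RRM1) passed with array weights, with that prior, with the most variable probe set of a gene, and with the replicate number as a fixed or a random block (2 each). RRM1 passed alone with genes at or above the first quartile (adjusted p = 0.0487) or the median of brightness (0.0424), which leave PCNA out. Same-numbered arrays deviated together at correlations of 0.05, 0.00 and 0.07, and differently numbered ones at −0.069 to 0.017. Deviations from a mean of 3 arrays are tied to each other, so these values cannot settle whether same-numbered arrays belong together. No label gives pairs, and the numbers were not taken as pairs. With probe sets averaged per gene, 5 members were higher at an unadjusted p under 0.05, as were 5 without probe sets ending in _x_at or _s_at, where 5.51% and 4.83% of all genes were; with the most variable probe set 1, MCM4, was lower. Of the other replication genes 1 passed with averaged probe sets (NASP), 1 without those endings (SHMT2) and 2 with the most variable probe set (both). Of the cyclin genes 1 passed with averaged probe sets (CKS2) and 1 without those endings (CCNA2), a filter that left CKS2 out. CDK4 also passed with either block, the most variable probe set, both brightness filters and the trended prior. The median filter left CCNA2 out. Of 302 values of 20 named probe sets under the alternatives, 290 kept their direction and side of the threshold. RRM1 passed in 3 of 15 alternatives over probe sets and PCNA in 10 of 14. The rest of the 20 had an adjusted p of 0.131 (RRM2) or more in limma's main fit and passed in 0 alternatives. The 290 therefore says little about how stable the calls were. Leaving out single arrays turned CDC6 (−0.0094 to 0.036), ORC2 (−0.076 to 0.11) and LIG1 (−0.044 to 0.082), all near 0. Why counts moved was not tested, except that filters leave out probe sets. The counts at an unadjusted p were added after the data were seen. Motifs in promoters were not examined. Dim probe sets, 19 of 67 below the first quartile, limit what can be read.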
